A study of Mus musculus with 16 samples.

Results

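The genes described here encode the histone deacetylases, the histone demethylases and the lysine methyltransferases that carry family names. They were chosen by a rule on the symbol, as every protein-coding gene named Hdac, Sirt, Kdm or Kmt followed by a number, and 44 of the 55385 genes in the deposited tables met that rule. Earlier results of these data were known when the genes were chosen. The 44 genes comprise 11 Hdac genes, 7 Sirt genes, 18 Kdm genes and 8 Kmt genes, and all 44 passed the filter on low counts. An antisense gene, Kdm6bos, and a pseudogene, Kdm4dl, were left out.

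RNA sequencing was performed on primary mouse hippocampal cultures, prepared from newborn C57Bl/6N mice and infected with recombinant adeno-associated virus carrying a short hairpin RNA. The hairpin was either a control sequence (shControl) or 1 hairpin against Dnmt3a1 (shDnmt3a1), the long isoform of the DNA methyltransferase Dnmt3a, so a single hairpin sequence stands for the knockdown. Cultures were harvested without stimulation (baseline) or after 4 h of bicuculline at 50 µM, which blocks GABA-A receptors and thereby evokes bursts of neuronal firing. The 4 groups, shControl baseline, shControl bicuculline, shDnmt3a1 baseline and shDnmt3a1 bicuculline, held 4 libraries each, and all 16 cultures had received a virus. Per the study, each library of a group came from its own neuronal preparation. The labels do not give the sex of the pups.

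Histone acetylation loosens chromatin and is read by activating proteins, and deacetylases remove it. Class I enzymes work in nuclear corepressor complexes, class IIa enzymes move between cytoplasm and nucleus and repress MEF2 transcription factors, and sirtuins are a separate family that consumes NAD. Lysine methylation has no single sense: methylated H3K4 marks promoters and enhancers, whereas methylated H3K9 and H3K27 are found in silent chromatin. Kdm1 enzymes are amine oxidases, the other Kdm proteins carry a JmjC domain, and several Kdm genes are known for disorders of brain development when mutated.

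The libraries held between 28912697 and 29586355 estimated counts, and the 44 genes together took 0.227% to 0.255% of them. Levels within a gene are given below in CPM (counts scaled to a common library size by the trimmed mean of M-values), and listed in the order of replicates 1 to 4, and levels between genes in TPM (scaled transcript abundance), which corrects for transcript length. The targeted gene bore out the labels: Dnmt3a ranged from 293 to 338 CPM in the 8 shControl libraries and from 39.4 to 48.0 CPM in the 8 shDnmt3a1 libraries. Bicuculline raised the immediate early genes Arc, Fos and Npas4 in both hairpins, with log2 fold changes of 5.64, 6.40 and 7.32 in shControl. Some activity genes differed between hairpins. In shDnmt3a1, Fos was higher (0.58, adjusted p = 0.0437) and Bdnf lower (−0.74, adjusted p = 0.00900) at baseline. With bicuculline Fosb was lower (−0.61, adjusted p = 0.0156) and Homer1 higher (0.63, adjusted p = 0.0368). Arc, Npas4, Egr1 and Nr4a1 did not pass the test between hairpins in either state. Neuronal markers were abundant (6121 to 8435 CPM summed over 6 genes), and 4 of 5 microglial markers and 5 of 5 proliferation markers stood under 1 CPM.

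Per unit of length, Hdac5 was the most abundant of the 44 genes. It averaged 137 ± 12.7 TPM (SD, n = 4) at baseline in shControl. Hdac11, the lone class IV enzyme, Hdac3, the deacetylase of the NCoR corepressor complex, Kdm1a, the H3K4 demethylase of the CoREST complex, and Sirt2, a cytoplasmic deacetylase of tubulin, followed with means over 16 libraries of 91.8, 87.3, 84.6 and 79.8 TPM. Their order was not stable: Hdac11 was ahead at baseline in shControl (108 ± 4.90 TPM against 95.3 ± 6.25 TPM for Hdac3, SD, n = 4), whereas in shDnmt3a1 with bicuculline the 4 means lay between 76.9 and 83.3 TPM with SDs of 3.92 to 11.2 TPM.

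Among class I enzymes Hdac3 and Hdac2 (65.3 TPM) stood above Hdac1 (21.8 TPM) and Hdac8 (3.48 TPM). The class IIa enzymes ran from Hdac5 (171 TPM over the 16 libraries) through Hdac9 (64.3 TPM) and Hdac4 (21.0 TPM) to Hdac7 (5.37 TPM). Among the sirtuins, the mitochondrial Sirt3 (55.4 TPM) came next to Sirt2, with Sirt7, Sirt6, Sirt4, Sirt5 and Sirt1 between 19.3 and 5.75 TPM. The X-linked Kdm5c, an H3K4 demethylase, averaged 28.4 TPM against 3.62 TPM for its Y-linked counterpart Kdm5d.

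Kmt2e led the KMT2 family at 41.3 TPM, and the other four members lay between 13.9 and 23.9 TPM. Kdm8 (1.30 TPM) and Kdm4d (0.562 TPM) were the lowest of the 44 genes, with 12 to 75 and 10 to 37 counts per library, so their values carry the largest counting error.

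**Figure D1:**
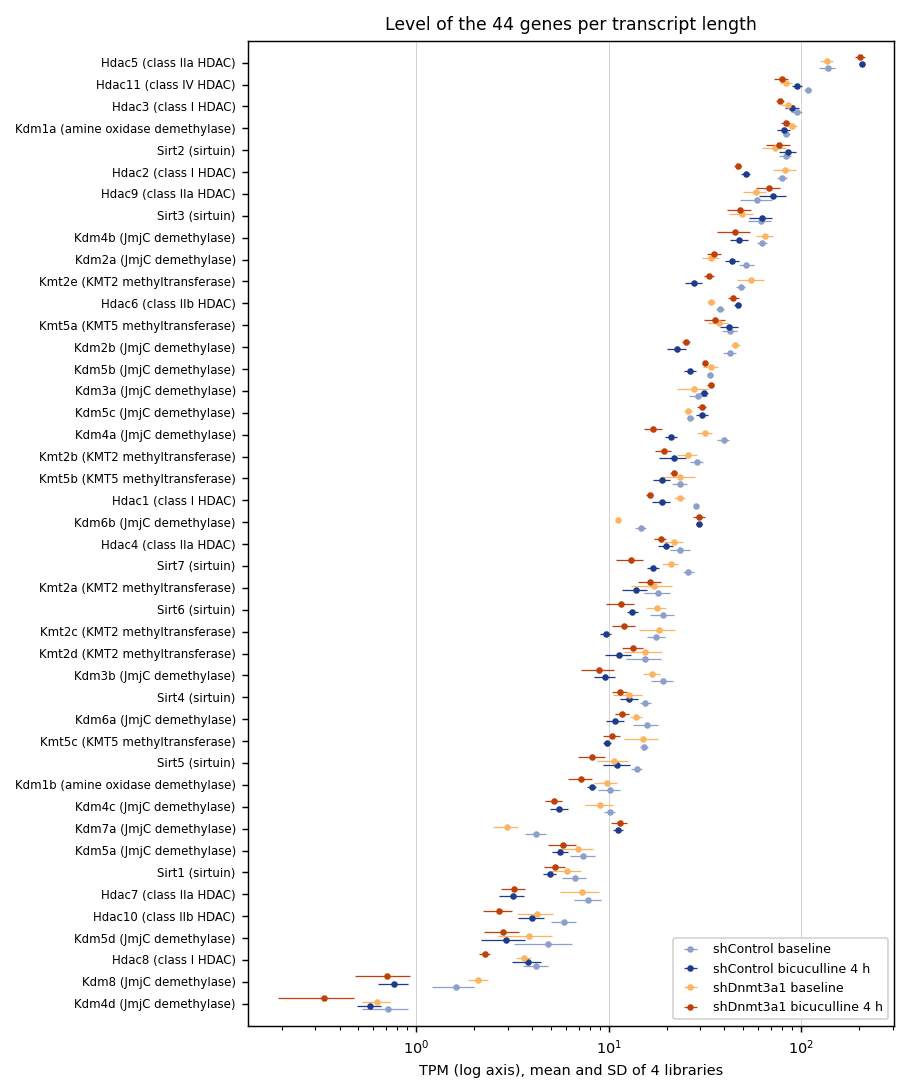
TPM (log axis) of each of the 44 genes in the 4 groups; points are the mean of 4 libraries and bars the SD, with genes sorted by their mean over 16 libraries. Levels run from 171 TPM for Hdac5 down to 0.562 TPM for Kdm4d, and for most genes the 4 groups lie much closer to each other than the genes do.

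Bicuculline was compared with baseline in shControl first, to ask which of these genes respond to synaptic activity. In shControl, 10 of the 44 genes rose and 18 fell at an adjusted p under 0.05, which is 22.7% and 40.9% of them, against 19.5% and 21.9% of the 17222 genes tested. With a log2 fold change over 0.5 required as well, 3 rose (6.82% of the 44 genes, 10.8% of all genes) and 9 fell (20.5%, against 11.1% of all genes). The 2 groups did not overlap for 24 of the 44 genes (54.5%), against 39.7% of all genes. The median log2 fold change was −0.16 over the 44 genes and 0.01 over all genes tested.

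In shDnmt3a1, 10 genes rose and 18 fell at an adjusted p under 0.05, against 20.8% and 25.2% of all genes. No library is shared with the comparison above, but the 2 comparisons may not be independent. Same-numbered libraries of the 2 hairpins deviated together, with correlations of 0.313 to 0.490 at baseline and 0.163 to 0.519 with bicuculline. Past the fold threshold 3 rose and 10 fell, against 12.6% and 13.2% of all genes, and 24 genes did not overlap between the groups, against 40.4% of all genes. Across the 44 genes the log2 fold changes in the 2 hairpins had a Pearson correlation of 0.943, against 0.882 across all genes tested. These are correlations across genes, which are not independent replicates. The sign was shared by 41 of 44 genes (93.2%, against 86.2% of all genes), 7 rose in both hairpins (15.9%, against 16.7% of all genes) and 14 fell in both (31.8%, against 19.5%).

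Markers of cell types moved with the groups too. With bicuculline, 2 of 5 excitatory markers rose and 1 fell in each hairpin, and 3 of 6 neuronal markers rose and 1 fell. In shControl the excitatory Neurod6 went from a mean of 251 to 102 CPM and Slc17a6 from 21.4 to 62.1 CPM. The neuronal Tubb3 went from 997 to 584 CPM in shControl and from 1419 to 653 CPM in shDnmt3a1. The 4 GABAergic markers summed to 1577 to 1866 CPM at baseline and 2343 to 2673 CPM with bicuculline in shControl. In shDnmt3a1 the sums were 1205 to 1399 CPM and 2015 to 2376 CPM, and 4 of 4 markers rose in both hairpins, with 2 of 4 lower in shDnmt3a1 than in shControl at baseline. The 6 astrocyte markers summed to 238 to 412 CPM in shControl and 313 to 554 CPM in shDnmt3a1 at baseline, with 6 of 6 log2 fold changes positive and 1 passing the test. With bicuculline they summed to 253 to 504 CPM in shControl and 429 to 626 CPM in shDnmt3a1. In bulk RNA, fewer cells of a type and less RNA per cell cannot be told apart, and the part of these shifts in the changes of the 44 genes was not tested.

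**Figure D2:**
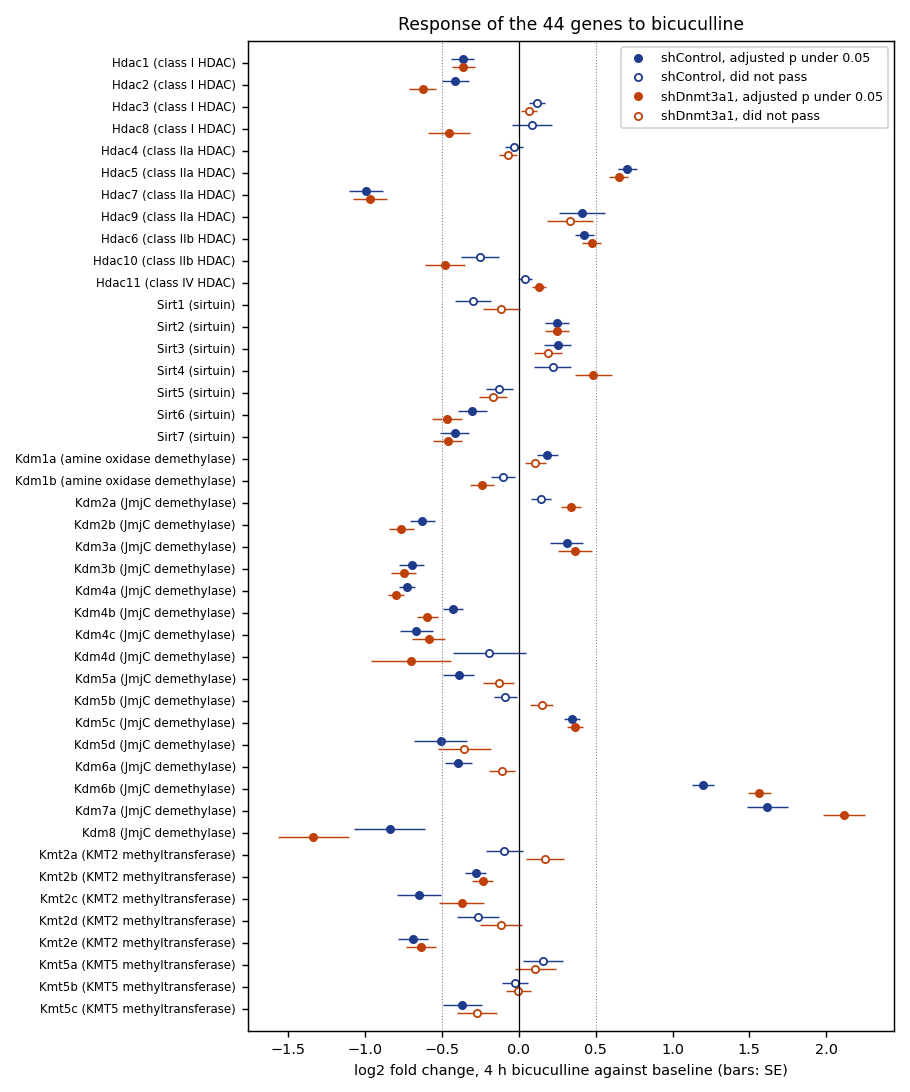
Log2 fold change with bicuculline against baseline for the 44 genes in shControl and shDnmt3a1; bars are the SE, filled points have an adjusted p under 0.05 and dotted lines mark ±0.5. Kdm7a, Kdm6b and Hdac5 lie above the upper line in both hairpins, and Hdac7, Kdm8, Kdm4a, Kdm3b, Kdm2b, Kdm4c and Kmt2e below the lower one in both.

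The largest increases were in 2 demethylases of repressive marks, Kdm7a and Kdm6b. Kdm7a removes dimethyl groups from H3K9 and H3K27 and lies at chr6:39136623-39206789 on the minus strand (GRCm38). It stood at 21.8, 14.4, 18.3 and 19.9 CPM in the 4 shControl baseline libraries and at 63.5, 52.9, 55.6 and 56.1 CPM with bicuculline. In shDnmt3a1 it stood at 15.9, 11.2, 13.5 and 15.8 CPM at baseline and at 74.0, 62.3, 56.1 and 52.5 CPM with bicuculline. The stimulated libraries all exceeded the baseline ones, and the log2 fold change was 1.62 ± 0.13 (SE), adjusted p = 3.39e-08 in shControl (3.07-fold) and 2.12 ± 0.14 (SE), adjusted p = 1.03e-09 in shDnmt3a1 (4.34-fold).

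Kdm6b, an H3K27 demethylase known as a stimulus-induced gene in several cell types (chr11:69398508-69413675, minus strand), stood at 47.5, 42.8, 44.99 and 42.7 CPM at baseline and 113, 104, 92.3 and 98.7 CPM with bicuculline in shControl. The corresponding values in shDnmt3a1 were 36.8, 35.5, 33.2 and 36.8 CPM and 112, 113, 93.8 and 102 CPM. The groups were far apart in both hairpins, with log2 fold changes of 1.20 ± 0.07 (SE), adjusted p = 7.81e-10 in shControl and 1.56 ± 0.07 (SE), adjusted p = 2.36e-11 in shDnmt3a1. The antisense gene Kdm6bos overlaps Kdm6b but stayed at 0.0309 to 0.778 CPM.

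The X-linked H3K27 demethylase Kdm6a went the other way in shControl, from 25.4, 22.2, 22.5 and 26.9 CPM to 17.3, 20.02, 17.1 and 19.3 CPM (−0.39 ± 0.09 (SE), adjusted p = 0.00131). In shDnmt3a1 the values were 25.1, 19.8, 22.5 and 23.6 CPM and 22.5, 21.8, 19.99 and 20.1 CPM and the change of −0.11 missed the threshold (adjusted p = 0.333, and 0.0107 when libraries were scaled by their totals). The difference between the 2 responses was not significant (adjusted p = 0.962).

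The class IIa deacetylases moved in different directions. Hdac5 (chr11:102194432-102230166, minus strand) rose from 189, 195, 189.7 and 183 CPM to 335, 307, 300.2 and 293 CPM in shControl. In shDnmt3a1 it rose from 210.1, 226, 189.8 and 198 CPM to 337, 314, 307 and 335 CPM. No stimulated library overlapped a baseline one, and the log2 fold changes were 0.71 ± 0.06 (SE), adjusted p = 6.07e-08 in shControl and 0.65 ± 0.06 (SE), adjusted p = 1.24e-07 in shDnmt3a1. In TPM, Hdac5 went from 137 ± 12.7 to 208 ± 6.94 (SD, n = 4) in shControl, so the most abundant of the 44 genes at baseline became more abundant still.

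Hdac7 (chr15:97792664-97844502, minus strand) fell, from 9.18, 11.9, 10.5 and 10.4 CPM to 5.36, 5.57, 5.15 and 4.98 CPM in shControl. In shDnmt3a1 it stood at 10.4, 13.2, 9.27 and 12.1 CPM at baseline and 5.54, 5.85, 6.24 and 5.35 CPM with bicuculline. The groups did not overlap in either hairpin, with log2 fold changes of −0.99 ± 0.11 (SE), adjusted p = 1.43e-06 in shControl and −0.97 ± 0.11 (SE), adjusted p = 1.39e-06 in shDnmt3a1. Slc48a1, on the opposite strand, overlaps Hdac7 and averaged 99.1 CPM against 8.34 CPM for Hdac7, and the strand setting of the libraries is not given, so reads of the overlap cannot be told apart.

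Hdac9 showed 0.41 in shControl (adjusted p = 0.0376) with overlapping groups (110.0, 100.2, 112 and 143 CPM at baseline and 196, 132, 137 and 154 CPM with bicuculline). In shDnmt3a1 it showed 0.33 and missed the threshold (adjusted p = 0.0809). With the replicate number added to the model as a block, the adjusted p in shDnmt3a1 was 0.00535. In shControl Hdac9 no longer passed the test without any of 5 of the 16 libraries (shControl baseline replicates 1, 2 or 3, shControl bicuculline replicates 1 or 4). The same held when libraries were scaled by their totals (0.25, adjusted p = 0.131) and on log2(TPM + 1) (adjusted p = 0.128). Hdac4 missed the threshold in both hairpins, with log2 fold changes of −0.03 and −0.07.

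Of the class I enzymes, Hdac1 and Hdac2, the catalytic pair of the Sin3, NuRD and CoREST complexes, fell in both hairpins. Hdac2 stood at 70.8, 65.2, 65.8 and 76.6 CPM at baseline and 55.4, 48.8, 49.8 and 55.1 CPM with bicuculline in shControl (−0.41 ± 0.09 (SE), adjusted p = 0.000829). In shDnmt3a1 the values were 87.6, 65.4, 73.8 and 87.3 CPM and 52.1, 52.1, 48.5 and 50.8 CPM, again without overlap (−0.63 ± 0.09 (SE), adjusted p = 1.07e-05). Hdac1 fell by a similar amount, with −0.37 in shControl and −0.36 in shDnmt3a1. Hdac3 missed the threshold in both (0.12 and 0.07), although the groups did not overlap in shControl and its adjusted p there was 0.0372 with a replicate block.

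Hdac6, the cytoplasmic tubulin deacetylase, rose in both hairpins, by 0.42 and 0.47 on the log2 scale. Hdac10, a polyamine deacetylase, and Hdac8, which acts on cohesin, missed the threshold in shControl (−0.25 and 0.09) and fell in shDnmt3a1 (−0.48 ± 0.13 (SE), adjusted p = 0.00574, and −0.46 ± 0.14 (SE), adjusted p = 0.0104). With the replicate block Hdac10 passed in shControl as well (adjusted p = 0.0401). The difference between hairpins was not significant for either (adjusted p = 1 and 0.845). Hdac11 showed 0.04 in shControl, which missed the threshold, and 0.13 in shDnmt3a1 (adjusted p = 0.0230), and the latter was −0.017 when libraries were scaled by their totals alone and −0.085 on log2(TPM + 1). It also missed the threshold with no filter on low counts (adjusted p = 0.237), with only the 2 groups fitted (0.0544), and without replicate 4 of either shDnmt3a1 group (up to 0.0814).

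Of the 7 sirtuins, 2 rose and 2 fell in each hairpin, and none passed the fold threshold. That is 28.6% in each direction, against 19.5% higher and 21.9% lower of all genes in shControl and 20.8% and 25.2% in shDnmt3a1. Sirt2 showed 0.25 in shControl and 0.25 in shDnmt3a1 and passed the test in both. It passed in neither when libraries were scaled by their totals (0.091 and 0.10, adjusted p = 0.513 and 0.448) or on log2(TPM + 1) (0.040 and 0.067, adjusted p = 0.816 and 0.674). It also missed the threshold in shControl without shControl bicuculline replicate 2 (0.061). In shDnmt3a1 it did so without shDnmt3a1 baseline replicate 1 (0.0512) or shDnmt3a1 bicuculline replicate 3 (0.0583).

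The nuclear enzymes Sirt6 (−0.30 and −0.47) and Sirt7 (−0.42 and −0.46) fell in both, and Sirt7 (16.8 CPM) overlaps Mafg on the same strand (122 CPM). Sirt6 missed the threshold in shControl without shControl baseline replicate 2 (adjusted p = 0.0678) or shControl bicuculline replicate 3 (0.0519). Of the mitochondrial members, Sirt3 passed in shControl (0.25) and Sirt4 in shDnmt3a1 (0.49), although Sirt4 was −0.14 on log2(TPM + 1). In shDnmt3a1 the adjusted p of Sirt3 was 0.0986, and 0.00999 with a replicate block, and its sign turned on log2(TPM + 1). The Sirt3 value in shControl was 0.093 when libraries were scaled by their totals (adjusted p = 0.55) and 0.020 on log2(TPM + 1) (adjusted p = 0.921). Sirt3 also missed the threshold in shControl with no filter on low counts (0.0513). It missed the threshold, with an adjusted p up to 0.109, without any of 5 libraries (shControl baseline replicates 1 or 4, shControl bicuculline replicates 1, 2 or 3). Sirt1 (−0.30, adjusted p = 0.0538) and Sirt5 (−0.13) missed the threshold in shControl, and the adjusted p of Sirt1 was 0.0146 with a replicate block.

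Of the 16 JmjC demethylases, 4 rose and 9 fell in shControl (25% and 56.2%, against 19.5% and 21.9% of all genes), with a median of −0.39. In shDnmt3a1, 5 rose and 7 fell (31.2% and 43.8%, against 20.8% and 25.2% of all genes), with a median of −0.24. Of the 4 Kdm4 enzymes, which act on trimethylated H3K9, 3 fell in shControl and 4 in shDnmt3a1. Kdm4a (chr4:118136957-118180043, minus strand) fell from 81.1, 85.2, 82.4 and 82.2 CPM to 49.4, 52.2, 51.0 and 47.2 CPM in shControl. In shDnmt3a1 it stood at 71.7, 71.4, 73.8 and 73.0 CPM at baseline and 40.7, 39.1, 44.4 and 42.8 CPM with bicuculline. Replicates were tight and groups well separated, with log2 fold changes of −0.73 ± 0.05 (SE), adjusted p = 5.24e-09 in shControl and −0.80 ± 0.05 (SE), adjusted p = 1.3e-09 in shDnmt3a1.

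Kdm4c fell from 20.3, 17.9, 19.4 and 20.8 CPM to 12.4, 10.9, 13.2 and 12.8 CPM in shControl (−0.67 ± 0.11 (SE), adjusted p = 6.66e-05). In shDnmt3a1 it fell from 19.6, 15.04, 19.6 and 20.9 CPM to 12.3, 13.9, 10.5 and 13.4 CPM (−0.59 ± 0.11 (SE), adjusted p = 0.000197). Kdm4b fell by 25.6% in shControl (−0.43 on the log2 scale) and past the fold threshold in shDnmt3a1 (−0.59 ± 0.07 (SE), adjusted p = 9.64e-07), where it went from 118, 109, 101 and 108 CPM to 68.5, 69.9, 71.1 and 78.8 CPM. No group overlapped another for these 2 genes within a hairpin.

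Kdm4d, at 10 to 37 counts per library, showed −0.19 in shControl and −0.70 ± 0.26 (SE), adjusted p = 0.0345 in shDnmt3a1. Its values in shDnmt3a1 were 0.703, 0.883, 0.794 and 0.707 CPM at baseline and 0.396, 0.370, 0.748 and 0.369 CPM with bicuculline, and replicate 3 of the stimulated group lay inside the baseline range. The adjusted p rose to between 0.0625 and 0.0975 without any of 5 libraries (shDnmt3a1 baseline replicates 2 or 3, shDnmt3a1 bicuculline replicates 1, 2 or 4). It was 0.0998 with DESeq2, 0.0975 with no filter on low counts and 0.0708 with only the 2 groups fitted. Reads may also be shared with the near copy Kdm4dl.

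Kdm3b, an H3K9 demethylase, fell from 48.5, 49.7, 52.6 and 50.8 CPM to 27.0, 33.5, 32.2 and 31.6 CPM in shControl (−0.70 ± 0.08 (SE), adjusted p = 2.76e-06). In shDnmt3a1 it fell from 52.1, 49.6, 52.1 and 54.5 CPM to 27.3, 32.3, 36.1 and 28.2 CPM (−0.75 ± 0.08 (SE), adjusted p = 9.32e-07). Its paralog Kdm3a showed 0.31 in shControl and 0.37 in shDnmt3a1 and passed the test in both. Kdm3a overlapped between baseline (52.2, 41.5, 43.1 and 56.8 CPM) and bicuculline (61.6, 56.0, 61.1 and 61.5 CPM) in shControl, and its adjusted p there was 0.0287. Kdm3a no longer passed in shControl when libraries were scaled by their totals (0.16, adjusted p = 0.189) or on log2(TPM + 1) (0.10, adjusted p = 0.457). The same held, with an adjusted p up to 0.101, without any of 5 libraries (shControl baseline replicates 2 or 3, shControl bicuculline replicates 1, 3 or 4). In shDnmt3a1 it missed the threshold when libraries were scaled by their totals (0.22, adjusted p = 0.0574).

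Kdm2b, which recruits a Polycomb complex to CpG islands and demethylates H3K36, fell from 63.8, 59.0, 58.2 and 67.7 CPM to 36.4, 43.7, 37.5 and 43.3 CPM in shControl (−0.63 ± 0.08 (SE), adjusted p = 6.88e-06). In shDnmt3a1 it fell from 84.6, 73.0, 66.5 and 80.6 CPM to 45.6, 46.1, 43.1 and 44.6 CPM (−0.76 ± 0.08 (SE), adjusted p = 5.31e-07), with no overlap in either hairpin. Rnf34 overlaps Kdm2b on the opposite strand at 73.2 CPM against 56.4 CPM. Kdm2a, its paralog, showed 0.14 in shControl (adjusted p = 0.0871) and passed the test in shDnmt3a1 (0.34 ± 0.07 (SE), adjusted p = 0.000345), where its value was 0.059 on log2(TPM + 1) (adjusted p = 0.641). The difference between hairpins had an adjusted p of 1.

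Kdm8, a JmjC protein at 12 to 75 counts per library, stood at 1.152, 1.98, 1.70 and 1.91 CPM and 0.856, 1.14, 0.961 and 0.807 CPM in shControl (−0.84 ± 0.23 (SE), adjusted p = 0.00708). In shDnmt3a1 it stood at 2.25, 2.45, 2.13 and 2.09 CPM at baseline and 0.475, 1.11, 1.14 and 0.775 CPM with bicuculline (−1.34 ± 0.23 (SE), adjusted p = 0.000120). Baseline libraries lay above stimulated ones throughout, although in shControl the lowest baseline value (1.152 CPM) nearly met the highest stimulated one (1.14 CPM).

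Among the H3K4 demethylases of the Kdm5 family, Kdm5c rose in both hairpins (0.35 and 0.37). Kdm5a fell in shControl (−0.39 ± 0.10 (SE), adjusted p = 0.00491, and an adjusted p of 0.0802 on log2(TPM + 1)) and showed −0.13 in shDnmt3a1 (adjusted p = 0.322). Kdm5b missed the threshold in both (−0.09 and 0.15). In shDnmt3a1 its adjusted p was 0.0321 with the replicate block, and its sign turned on log2(TPM + 1). Of the amine oxidases, Kdm1a showed 0.19 in shControl (adjusted p = 0.0378) and −0.045 on log2(TPM + 1). It no longer passed the test when libraries were scaled by their totals (0.027, adjusted p = 0.756), with no filter on low counts (0.108) or with only the 2 groups fitted (0.0581). The same held without any of 5 libraries (shControl baseline replicates 2, 3 or 4, shControl bicuculline replicates 1 or 4, up to 0.162). Kdm1b showed −0.10 in shControl and −0.24 in shDnmt3a1 (adjusted p = 0.0162), and the latter missed the threshold without shDnmt3a1 baseline replicate 3 (0.057) or shDnmt3a1 bicuculline replicate 4 (0.0517).

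Without the replicate block, 0 of 8 Kmt genes rose in either hairpin at an adjusted p under 0.05. All 5 KMT2 genes had negative log2 fold changes in shControl and 3 fell, and 3 fell in shDnmt3a1 (60% in each, against 21.9% and 25.2% of all genes). Kmt2e, a family member by sequence that is thought to lack methyltransferase activity, fell from 148, 132, 139 and 154 CPM to 79.7, 97.4, 90.1 and 88.0 CPM in shControl. In shDnmt3a1 it stood at 198, 148, 159 and 211 CPM at baseline and 117, 116, 119 and 109 CPM with bicuculline. The log2 fold changes were −0.69 ± 0.10 (SE), adjusted p = 1.71e-05 in shControl and −0.64 ± 0.10 (SE), adjusted p = 2.95e-05 in shDnmt3a1, with no overlap in either. Srpk2 overlaps Kmt2e on the opposite strand and averaged 189.7 CPM against 133 CPM for Kmt2e.

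Kmt2c, which places monomethyl marks on H3K4 at enhancers, fell from 80.9, 61.0, 70.2 and 79.5 CPM to 48.4, 48.5, 45.3 and 43.4 CPM in shControl (−0.65 ± 0.15 (SE), adjusted p = 0.00147). In shDnmt3a1 it stood at 96.1, 55.9, 72.4 and 96.7 CPM and 72.9, 54.7, 64.7 and 55.7 CPM, with overlap, and the change of −0.37 had an adjusted p of 0.0428. That change missed the threshold with voom (adjusted p = 0.0647), DESeq2 (0.058), the size factors of DESeq2 in edgeR (0.0609) and only the 2 groups fitted (0.0911). It also missed the threshold when any of 7 libraries was left out (replicate 3 of either shControl group, shDnmt3a1 baseline replicates 1 or 4, shDnmt3a1 bicuculline replicates 2, 3 or 4), with an adjusted p up to 0.158. Kmt2b fell in both hairpins (−0.28 and −0.24), and Kmt2a and Kmt2d missed the threshold. Of the H4K20 enzymes, Kmt5c fell in shControl (−0.37), but missed the threshold without any of 5 libraries (shControl baseline replicates 1, 2 or 4, shControl bicuculline replicates 2 or 3, adjusted p up to 0.0829). In shDnmt3a1 Kmt5c missed the threshold (adjusted p = 0.0932, and 0.0493 with the replicate block). Kmt5a and Kmt5b missed the threshold in both hairpins, with Kmt5a at an adjusted p of 0.0216 in shControl (0.16 on the log2 scale) once the replicate block was added.

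**Figure D3:**
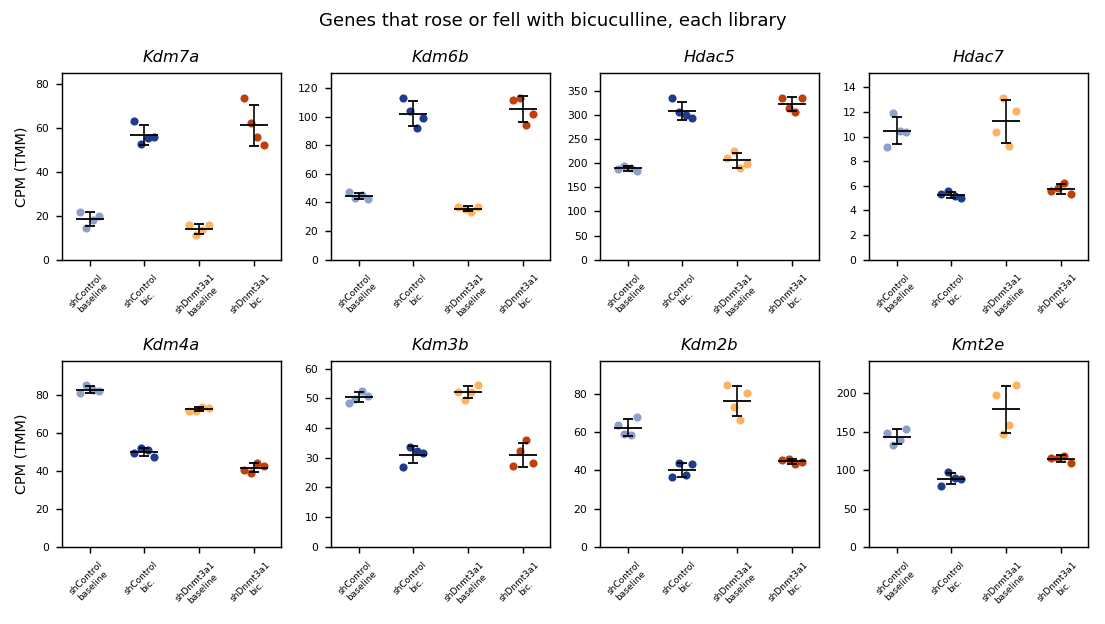
CPM of 8 genes in each of the 16 libraries (points), with the mean and SD of each group of 4. Kdm7a, Kdm6b and Hdac5 are higher and Hdac7, Kdm4a, Kdm3b, Kdm2b and Kmt2e lower in the stimulated libraries of both hairpins, without overlap between baseline and bicuculline.

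Since bicuculline changed these genes in both directions, the 250 bases before each RefSeq start (GRCm38.p6) were searched on both strands. The searched letters were the cAMP response element (TGACGTCA) and the AP-1 site (TGANTCA). Added after the sequences had been seen was CTA, any 4 bases, then TAG, called MEF2 letters here. This is a looser pattern than the MEF2 site, whose 4 middle bases are A or T. Windows were found for 34 of the 44 genes (49 windows), and for 11 of the 15 genes called with bicuculline in either hairpin. Kdm6b, Kdm3b, Kdm4b and Kmt2e were called but had no window, so they were not searched. The cAMP response element was in 0 of these windows, against 1.55% of 32851 windows of all genes. The AP-1 letters were in 4 (Hdac9, Kdm3a, Kdm4a and Kdm5c, against 6.75% of all windows). The looser MEF2 letters were in 3 (Hdac2, Hdac5 and Hdac9, against 3.2% of all windows). Of these 3, only the match of Hdac5 (CTATTTTTAG) had A or T at all 4 middle bases.

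The windows of the gene with the largest increase and of 2 strongly changed genes that held a match are printed here from 5′ to 3′ on the strand of the gene, each ending at the base before the start, with motif letters in capitals: Kdm7a (chr6:39206774-39207023, minus strand, no match), Hdac5 (chr11:102230173-102230422, minus strand, MEF2 letters beginning 20 bases before the start) and Kdm4a (chr4:118180044-118180293, minus strand, AP-1 letters beginning 190 bases before the start).
Kdm7a: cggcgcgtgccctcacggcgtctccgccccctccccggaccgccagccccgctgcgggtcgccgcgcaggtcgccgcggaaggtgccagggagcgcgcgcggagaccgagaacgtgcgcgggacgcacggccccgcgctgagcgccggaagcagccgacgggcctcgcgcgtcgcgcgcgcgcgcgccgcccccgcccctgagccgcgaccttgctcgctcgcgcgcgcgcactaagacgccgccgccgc
Hdac5: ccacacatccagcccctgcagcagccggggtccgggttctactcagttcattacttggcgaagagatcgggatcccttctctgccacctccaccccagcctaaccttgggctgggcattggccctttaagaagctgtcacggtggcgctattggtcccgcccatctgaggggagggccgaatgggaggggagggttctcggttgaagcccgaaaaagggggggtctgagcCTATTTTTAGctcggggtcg
Kdm4a: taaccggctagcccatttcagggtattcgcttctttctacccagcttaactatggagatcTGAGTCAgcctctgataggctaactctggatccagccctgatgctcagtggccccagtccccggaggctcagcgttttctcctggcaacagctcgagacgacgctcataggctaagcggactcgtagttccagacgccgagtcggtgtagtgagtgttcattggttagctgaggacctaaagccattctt
Of these 3 genes, Kdm7a, which rose most, holds none of the searched letters in its window, Hdac5, which rose, holds the MEF2 letters and Kdm4a, which fell, the AP-1 letters. The match of letters does not show that a factor binds there.

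The second question was whether Dnmt3a1 knockdown alters these genes. In unstimulated cultures, shDnmt3a1 exceeded shControl for 2 of the 44 genes and fell short of it for 4 at an adjusted p under 0.05, against 8.12% and 8.19% of all genes. Neither direction had a gene past the fold threshold (1.76% and 4.07% of all genes) by edgeR, with 13 of the 44 at an unadjusted p under 0.05 (29.5%, against 28.8% of all genes), and 6 genes did not overlap between groups, against 19.9% of all genes. With a replicate block, since same-numbered libraries deviated together, 5 were higher and 8 lower, and Kdm7a, Hdac10, Sirt3, Sirt7, Hdac2, Kdm1a and Kmt5b were the added genes. The share of all genes passing with the block was not counted, so the block counts have no background.

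Kdm2a was the most reduced of the 44 genes at baseline. It stood at 101, 93.0, 85.2 and 99.5 CPM in shControl and at 70.7, 62.2, 63.7 and 73.0 CPM in shDnmt3a1, without overlap (−0.49 ± 0.07 (SE), adjusted p = 6.32e-05). With bicuculline the values were 100.5, 109, 106 and 102 CPM and 86.9, 88.9, 83.8 and 81.5 CPM, again without overlap (−0.29 ± 0.07 (SE), adjusted p = 0.00467). Its baseline change lay just inside the fold threshold, and it was called when libraries were scaled by their totals or when only the 2 groups were fitted.

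Kdm4a was lower with the knockdown in both states (−0.19 ± 0.05 (SE), adjusted p = 0.0155 at baseline and −0.26 ± 0.05 (SE), adjusted p = 0.00231 with bicuculline), and the hairpins did not overlap in either. With no filter on low counts Kdm4a missed the threshold at baseline (adjusted p = 0.116). Hdac11 was lower as well, at 128, 121, 121 and 119 CPM in shControl against 104, 103, 104 and 101 CPM in shDnmt3a1 at baseline (−0.25 ± 0.04 (SE), adjusted p = 0.000951). With bicuculline Hdac11 stood at 129.6, 124, 129 and 122 CPM and 109, 113, 113 and 116 CPM (−0.16 ± 0.04 (SE), adjusted p = 0.0207). The latter difference missed the threshold with no filter on low counts (adjusted p = 0.176), with only the 2 groups fitted (0.0631), and without shControl bicuculline replicate 3 (0.0637) or shDnmt3a1 bicuculline replicate 1 (0.0565). Kdm6b was lower at baseline (−0.32 ± 0.07 (SE), adjusted p = 0.00591) but showed 0.04 with bicuculline (adjusted p = 0.723).

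In the other direction, Kmt2e was higher in shDnmt3a1 at baseline (0.32 ± 0.10 (SE), adjusted p = 0.0285) and with bicuculline (0.37 ± 0.10 (SE), adjusted p = 0.0123), and Kdm2b was higher at baseline (0.29 ± 0.08 (SE), adjusted p = 0.0176). At baseline Kmt2e missed the threshold when libraries were scaled by their totals (0.24, adjusted p = 0.0826), on log2(TPM + 1) (0.17, adjusted p = 0.296) and with only the 2 groups fitted (adjusted p = 0.069). With bicuculline it missed the threshold on log2(TPM + 1) (0.26, adjusted p = 0.099). Kdm2b missed it when libraries were scaled by their totals (0.21, adjusted p = 0.0551) and on log2(TPM + 1) (0.091, adjusted p = 0.537). Without any of 4 libraries (shControl baseline replicates 2 or 3, shDnmt3a1 baseline replicates 1 or 4) both genes missed the threshold at baseline, with an adjusted p of 0.0734 to 0.113 for Kmt2e and 0.0539 to 0.0675 for Kdm2b.

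Kdm7a, the gene with the largest bicuculline response, showed −0.40 at baseline with an adjusted p of 0.0539, and 0.00517 with the replicate block. All 5 KMT2 genes had positive log2 fold changes at baseline (median 0.05) and with bicuculline (median 0.31). Of these 5, Kmt2e alone passed the edgeR test without the block, whereas with DESeq2 Kmt2c also passed with bicuculline. When libraries were scaled by their totals, 3 of the baseline signs turned.

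With bicuculline, 2 genes were higher and 6 lower in shDnmt3a1 at an adjusted p under 0.05, against 7.69% and 9.99% of all genes. Past the fold threshold 0 were higher and 2 lower, against 2% and 3.9% of all genes. The groups did not overlap for 13 genes, against 20.9% of all genes. With the replicate block 5 were higher and 7 lower, with Kmt2a, Kmt2c, Kmt5b and Sirt7 added, and again without a count of all genes under the block. Across the 44 genes the median absolute log2 fold change of the knockdown was 0.13 at baseline and 0.12 with bicuculline, against 0.17 and 0.19 over all genes.

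The 2 genes past the fold threshold were deacetylases expressed at low levels. Hdac8 (chrX:102284639-102505359, minus strand) stood at 3.87, 2.73, 3.98 and 3.93 CPM in shControl with bicuculline and at 2.34, 2.33, 2.17 and 2.25 CPM in shDnmt3a1. Its baseline values were 2.93, 3.24, 3.77 and 3.73 CPM and 3.13, 3.27, 2.86 and 3.23 CPM. The stimulated groups did not overlap (−0.67 ± 0.14 (SE), adjusted p = 0.00228), whereas at baseline they did (−0.13 ± 0.13 (SE), adjusted p = 0.554), on 59 to 124 counts per library.

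Hdac10 (chr15:89123307-89128700, minus strand) stood at 4.09, 5.29, 4.77 and 4.53 CPM in shControl with bicuculline and at 2.85, 3.48, 3.21 and 3.10 CPM in shDnmt3a1. At baseline the values were 5.79, 5.90, 5.78 and 4.77 CPM and 4.22, 5.13, 4.79 and 3.502 CPM. The stimulated groups were apart (−0.56 ± 0.13 (SE), adjusted p = 0.00642) and the baseline groups overlapped (−0.33 ± 0.13 (SE), adjusted p = 0.0814, and 0.0155 with the block). Hdac10 no longer passed both thresholds without shControl bicuculline replicate 2, where the adjusted p was 0.0230, or on log2(TPM + 1), where the adjusted p was 0.0628, leaving Hdac8 as the 1 gene called.

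Of the other genes, Sirt3 was lower with bicuculline at 28.7, 31.4, 35.2 and 29.2 CPM against 37.8, 38.1, 41.1 and 35.0 CPM (−0.29 ± 0.09 (SE), adjusted p = 0.0345), with a small overlap. Sirt3 missed the threshold on log2(TPM + 1) (adjusted p = 0.066) and without any of 6 libraries (shControl bicuculline replicates 1, 2 or 3, shDnmt3a1 bicuculline replicates 1, 2 or 4), with an adjusted p of 0.0528 to 0.107. Its reads may be shared with Psmd13 and Ric8a, which overlap it on the opposite strand at 54.3 and 83.0 CPM. Kdm5b, an H3K4 demethylase, was higher at 133, 120.0, 114 and 122 CPM against 94.3, 97.3, 94.5 and 90.8 CPM, without overlap (0.38 ± 0.08 (SE), adjusted p = 0.00230), and at baseline it showed 0.14 (adjusted p = 0.242).

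**Figure D4:**
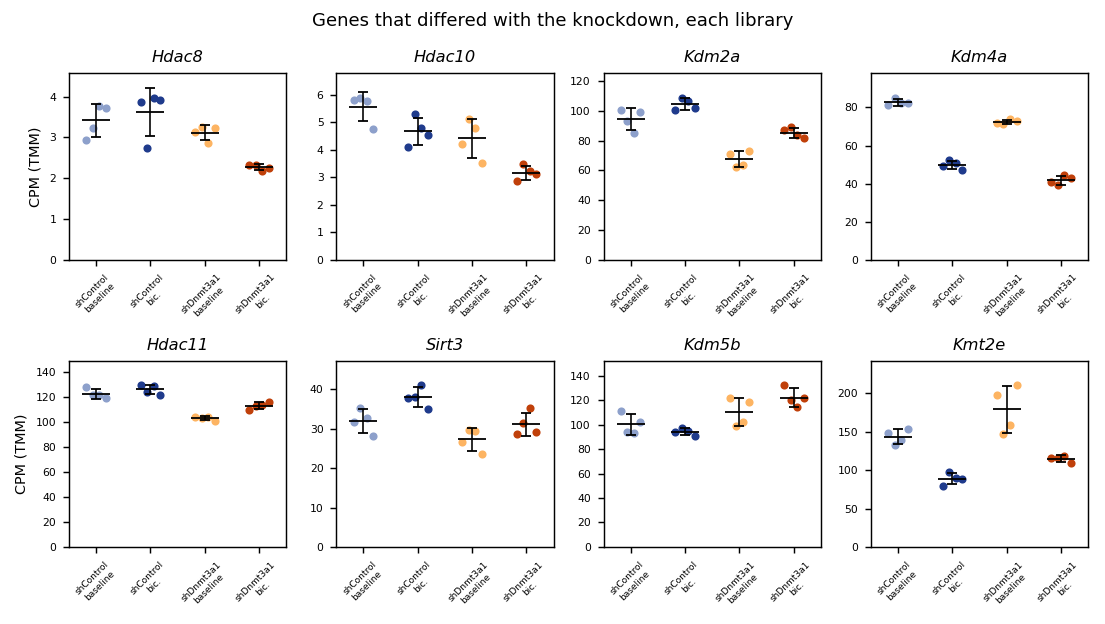
CPM of 8 genes in each of the 16 libraries (points), with the mean and SD of each group of 4. Kdm2a, Kdm4a and Hdac11 are lower in shDnmt3a1 in both states, and Hdac8 and Hdac10 are apart from shControl only in the stimulated libraries.

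Whether the knockdown changed the response to bicuculline itself was tested as an interaction. By edgeR 0 of the 44 genes and 0% of all genes had an adjusted p under 0.05, and voom also gave 0, whereas DESeq2 gave 17 of all genes, none of them among the 44. At an unadjusted p under 0.05 there were 6 of the 44 genes with edgeR (13.6%, against 852 or 4.95% of all genes), 5 with voom and 6 with DESeq2. The largest difference in favour of shDnmt3a1 was that of Kdm7a (0.50 ± 0.19 (SE), adjusted p = 0.877), followed by Kdm6b (0.37 ± 0.10 (SE), adjusted p = 0.633), and Hdac8 lay on the other side (−0.54 ± 0.19 (SE), adjusted p = 0.845). For Kdm6b the larger fold change in shDnmt3a1 came with a lower baseline, and the stimulated means were 29.5 ± 0.978 TPM in shControl and 29.603 ± 2.26 TPM in shDnmt3a1 (SD, n = 4).

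The family holds an X and Y pair, Kdm5c and Kdm5d, and the X-linked Kdm6a with its Y-linked relative Uty. Kdm5d was present in all 16 libraries, as were Xist and the Y-linked Ddx3y, so RNA of both sexes was present. Kdm5d stood at 9.97, 9.26, 13.8 and 10.8 CPM at baseline in shControl and at 8.34, 6.43, 9.40 and 6.66 CPM with bicuculline. In shDnmt3a1 the values were 9.56, 7.16, 13.3 and 10.6 CPM and 8.59, 7.11, 8.66 and 7.42 CPM. Replicate 3 was the highest and replicate 2 the lowest in each of the 4 groups, and Xist was lowest in replicate 3 of each group.

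Kdm5d fell with bicuculline in shControl (−0.51 ± 0.17 (SE), adjusted p = 0.0242) with overlapping groups, and showed −0.36 in shDnmt3a1 (adjusted p = 0.104, and 0.029 with library totals, 0.00759 with the replicate block and 0.0188 without shDnmt3a1 baseline replicate 2). The adjusted p in shControl rose to 0.1, 0.0759 and 0.0728 without shControl baseline replicate 3, shControl bicuculline replicate 2 or shControl bicuculline replicate 4, and was 0.000303 with the replicate block. The other Y-linked genes had positive log2 fold changes. Ddx3y, an RNA helicase, rose from 24.7, 18.3, 30.8 and 25.8 CPM to 71.3, 41.8, 71.2 and 60.2 CPM in shControl (1.30 ± 0.20 (SE), adjusted p = 5.14e-05), and Eif2s3y (0.25) and Uty (0.28) missed the threshold with positive values.

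Kdm5c, which has no such spread between replicates, rose from 76.1, 70.9, 74.2 and 75.3 CPM to 100.2, 95.6, 94.97 and 86.3 CPM in shControl (0.35 ± 0.05 (SE), adjusted p = 4.21e-05) without overlap. In shDnmt3a1 it rose from 81.0, 74.5, 78.3 and 77.1 CPM to 101, 104, 100.3 and 96.5 CPM (0.37 ± 0.05 (SE), adjusted p = 1.79e-05), so the X-linked and Y-linked copies moved in opposite directions in shControl. The assignment of reads between such copies by pseudoalignment carries an error that was not measured here.

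**Figure D5:**
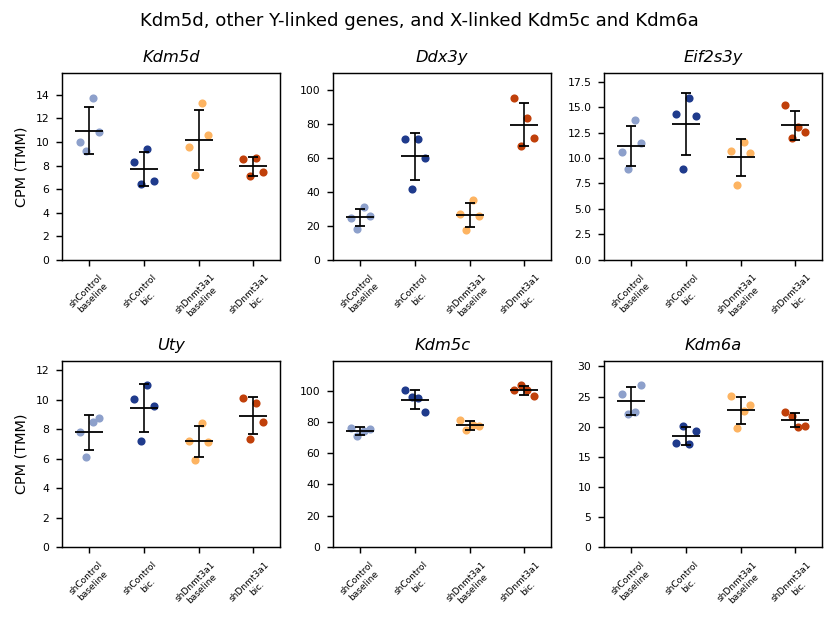
CPM of Kdm5d, 3 other Y-linked genes, Kdm5c and Kdm6a in each of the 16 libraries (points), with the mean and SD of each group of 4. Kdm5d overlaps between baseline and bicuculline, while Ddx3y and Kdm5c are higher with bicuculline without overlap in both hairpins.

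Genes that work with these enzymes were examined in 5 lists, given as log2 fold changes with bicuculline in shControl and then in shDnmt3a1. The shares below stand against 19.5% higher and 21.9% lower of all genes in shControl, and 20.8% and 25.2% in shDnmt3a1. Of 22 partners of deacetylase and Kdm1a complexes, 3 rose and 7 fell with bicuculline in shControl (13.6% and 31.8%), and 4 rose and 8 fell in shDnmt3a1 (18.2% and 36.4%). The corepressors Rcor2 (−1.30 and −1.62), Tbl1xr1 (−0.98 and −1.09) and Rcor3 (−0.81 and −0.94) fell in both hairpins, and the histone-binding Rbbp7 rose (0.65 and 0.64). Of the 12 histone acetyltransferases, which oppose the deacetylases, 2 rose and 8 fell in shControl (16.7% and 66.7%, median −0.31), and 3 rose and 7 fell in shDnmt3a1 (25% and 58.3%, median −0.27). Past the fold threshold were Kat6b (−0.54), Kat2a (−0.53), Ncoa1 (−0.52, with overlap) and Ncoa3 (0.53), all in shDnmt3a1.

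Among 11 partners of KMT2 complexes, 0 rose and 5 fell in shControl (0% and 45.5%) and 0 rose and 4 fell in shDnmt3a1 (0% and 36.4%), including the core subunit Rbbp5 (−0.72 and −0.98). Pagr1a showed −1.86 ± 0.58 (SE), adjusted p = 0.0161 in shControl, at means of 3.96 CPM at baseline and 1.08 CPM with bicuculline, and −0.15 in shDnmt3a1 (adjusted p = 0.848). Of 9 JmjC proteins outside the Kdm names, 4 rose and 3 fell in shControl (44.4% and 33.3%) and 5 rose and 3 fell in shDnmt3a1 (55.6% and 33.3%). Jarid2, a Polycomb partner without demethylase activity, rose (1.30 and 1.67), as did Jmjd1c (0.99 and 1.22), whereas Hr (−0.97 and −1.08) and Riox2 (−0.63 and −0.99) fell.

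Of 23 lysine methyltransferases outside the Kmt names, 5 rose and 7 fell in shControl (21.7% and 30.4%) and 8 rose and 7 fell in shDnmt3a1 (34.8% and 30.4%). The H3K79 enzyme Dot1l (1.08 and 1.18) and the H3K27 enzyme Ezh2 (0.81 and 1.04) rose, and the H3K4 enzyme Setd1b fell (−1.13 and −1.31). Nsd1, an H3K36 enzyme, fell in shControl by 0.81 on the log2 scale, and Ehmt1, an H3K9 enzyme, in shDnmt3a1 by 0.85. The H3K27 methyltransferase Ezh2 and the H3K27 demethylase Kdm6b were therefore both higher with bicuculline.

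With the knockdown, Setd7, an H3K4 monomethyltransferase, was higher (0.52 at baseline and 0.76 with bicuculline), and Hr (−0.64 and −0.75) and Smyd5 (−0.51 and −0.60) were lower. At baseline Setdb2 was lower (−0.81). With bicuculline Ezh2 was higher (0.67), and Riox2 (−0.65) and the KMT2 subunit Ash2l (−0.52) were lower. Of the 12 acetyltransferases, 0 passed the test at baseline and 2 were higher with bicuculline (16.7%, against 7.69% of all genes).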

How the data were processed

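Total RNA of 16 cultures was sequenced as 100 bp paired reads. Per the labels and the study's methods, the authors trimmed reads with Trim Galore 0.6.4 and quantified them with kallisto on GRCm38.p6. The deposited tables hold estimated counts per gene and TPM values, and no sample was pooled. Here the estimated counts were rounded, genes filtered with filterByExpr (17222 of 55385 left), scaled by TMM and fitted with edgeR 4.0.16 quasi-likelihood (R 4.3.3) in 1 model of 4 groups, with Benjamini-Hochberg adjustment over all 17222 genes. Calls needed an adjusted p under 0.05 and a log2 fold change beyond 0.5 in either direction, except for the interaction, where the adjusted p alone decided. The steps were checked on simulated counts.

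Library totals of 28912697 to 29586355 gave similar counting precision throughout. No 2 replicates agreed within sampling noise. Same-numbered libraries deviated together in 3 comparisons (correlation 0.163 to 0.519 per pair), and for bicuculline in shDnmt3a1 the 4 pairs stood at 0.477, 0.197, 0.339 and 0.0949. The numbers come from the sample titles.

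Alternatives were voom with limma 3.58.1, DESeq2 1.42.0, other scalings and filters, log2(TPM + 1) and log2(TPM + 0.1) with limma, a replicate block, and each library left out. The named genes were those past both thresholds (the 10 with the largest fold change where there were more), Kdm5c, Kdm5d and Kdm6a, with values per library, and called members of the partner lists, at most 4 per list and comparison. The 44 genes and the lists were chosen with earlier results of these data known. Promoter windows come from RefSeq. Sequences from chromosome 18 were not printed.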

Additional observations from a re-analysis of the deposited data

Results flagged for a closer look

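In 12 of 176 groups of 4 libraries (44 genes in 4 groups, 6.82%), 1 library lay far from the other 3, with a gap to the nearest that, as a share of the group's range, passed the critical value of Dixon's test at the 95% level. Chance gives about 1 in 20 such groups. In shControl baseline, replicate 2 was highest for Sirt6 (15.9 CPM) and Kmt2b (63.3 CPM) and lowest for Kdm5a (26.5 CPM), and replicate 4 was lowest for Hdac10 (4.77 CPM). In shControl bicuculline, replicate 2 was lowest for Hdac8 (2.73 CPM) and Kdm3a (56.0 CPM) and highest for Sirt2 (84.8 CPM) and Kdm4d (0.959 CPM). In shDnmt3a1 baseline, replicate 2 was highest for Hdac6 (71.3 CPM). In shDnmt3a1 bicuculline, replicate 3 was lowest for Hdac1 (15.2 CPM) and highest for Kdm4d (0.748 CPM) and Kmt2b (57.8 CPM). Replicate 2 of shControl bicuculline held 4 of the 12, and without it Hdac8 was still called between hairpins with bicuculline.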

How the results depend on the processing

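In shControl, 12 of the 44 genes were called with bicuculline (3 higher and 9 lower). The number was 19 with scaling by library totals (3 and 16), 19 on log2(TPM + 0.1) (3 and 16), 28 by adjusted p alone and 2 with a fold threshold of 1, and 11 to 13 with each library left out. In shDnmt3a1, 13 were called; the number was 20 on log2(TPM + 0.1) (3 and 17), 19 with library totals (2 and 17), 28 by adjusted p alone, 3 with a fold threshold of 1, and 12 to 15 with each library left out. Scaling by library totals shifted all genes, whose median then stood at −0.15 and −0.16 on the log2 scale. Of the 17222 genes tested, 1365 were then called higher and 3032 lower in shControl, against 1854 and 1911 with the main scaling. In shDnmt3a1 the numbers were 1674 and 3433, against 2167 and 2269.

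For the knockdown at baseline, 0 genes were called; the number was 1 (Kdm2a) with library totals, on log2(TPM + 1), on log2(TPM + 0.1) or with only the groups compared, 6 by adjusted p alone and 0 to 1 with each library left out (Kdm2a without shControl baseline replicate 3, shDnmt3a1 baseline replicate 1 or shDnmt3a1 baseline replicate 4, and Kdm7a without shControl baseline replicate 2). With bicuculline 2 were called; the number was 1 (Hdac8) on log2(TPM + 1) and on log2(TPM + 0.1), 8 by adjusted p alone, 0 with a fold threshold of 1, and 1 to 3 with each library left out (1 without shControl bicuculline replicate 2, and 3, with Kdm4d added, without shDnmt3a1 bicuculline replicate 3). The interaction gave 0 under each alternative and with each library left out. The cause of these shifts was not tested.

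Among genes with an adjusted p under 0.05, the sign of Kdm1a turned with bicuculline in shControl (−0.045 on log2(TPM + 1) and −0.046 on log2(TPM + 0.1)). In shDnmt3a1 the sign turned for Hdac11 (−0.017 with library totals, −0.085 on log2(TPM + 1) and −0.086 on log2(TPM + 0.1)) and Sirt4 (−0.14 and −0.15 on the TPM scales). With the replicate block 12, 13, 0 and 2 genes were called, as without it. By adjusted p alone the block gave 13 higher and 20 lower for bicuculline in shDnmt3a1, against 10 and 18, with Kdm5d at −0.34 (adjusted p = 0.00759). The share of all genes passing by adjusted p with the block was not counted. In every comparison the pairing rests on the replicate numbers of the titles. Depth limited Kdm4d (10 to 37 counts per library) and Kdm8 (12 to 75).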
